A study of Mus musculus with 160 samples.

Results

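The genes described here are 10 that store and release fat in the cell: the lipases Pnpla2, Lipe and Mgll, the lipase regulators Abhd5 and G0s2, and the lipid droplet coat proteins Plin1, Plin2, Plin4, Plin5 and Cidec. They were chosen by name, all 10 were found among the 56980 gene identifiers of the count table, and all 10 passed the filter on low counts in every tissue. Their mRNA levels come from 160 RNA-seq libraries of 35 males. The mice belonged to 4 inbred strains (SJL, DBA/2J, A/J and C57BL/6J). They ate chow until they were 12 weeks old and then 1 of 4 diets modelled on human ones (American, vegan, vegetarian or Mediterranean) for 6 weeks, until tissues were taken at 18 weeks. The diets matched in energy and macronutrients and differed in where the nutrients came from, and every library used here came from a mouse on 1 of these 4 diets. Brown fat, liver, quadriceps muscle, subcutaneous fat and visceral fat each had 32 libraries, with 2 mice for each strain on each diet, and 29 mice gave all 5 tissues.

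A fat cell keeps triglyceride in a droplet coated by perilipins. Pnpla2 (ATGL) takes off the first fatty acid, Lipe (hormone-sensitive lipase) the next and Mgll (monoacylglycerol lipase) the last, leaving glycerol; Abhd5 (CGI-58) activates Pnpla2 and G0s2 inhibits it. Plin1 is the perilipin of adipocytes and holds Abhd5 until protein kinase A releases it, Plin2 coats droplets in most cell types, Plin4 coats droplets of white fat and muscle, Plin5 ties droplets to mitochondria in tissues that burn fat, and Cidec (FSP27) enlarges droplets in white fat. Several of these genes are known targets of the PPAR nuclear receptors.

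On GRCm39, with the GENCODE vM39 annotation, Pnpla2 lies at chr7:141034404-141040656, Lipe at chr7:25078880-25098135 and Mgll at chr6:88652108-88805342. Abhd5 lies at chr9:122180621-122222936 and G0s2 at chr1:192949563-192956177. Plin1 lies at chr7:79369966-79382718, Plin2 at chr4:86565912-86588459 and Cidec at chr6:113400691-113412721. Plin4 (chr17:56406617-56416931) and Plin5 (chr17:56418446-56424610) are neighbours on the minus strand with 1514 bases between them.

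Library totals ran from 18.0 to 54.8 M (mega) counts. Liver, muscle, brown and visceral fat carried their own markers: 6 hepatocyte genes summed to a mean of 122700 TPM (reads per gene length, scaled to the same total in every library) in liver, 6 muscle fibre genes to 101700 TPM in muscle, 6 brown adipocyte genes to 14630 TPM in brown fat, and 4 genes of the visceral lining to 212.2 TPM in visceral against 6.832 TPM in subcutaneous fat. The 3 genes of the subcutaneous depot summed to 43.33 TPM there, above 23.44 in visceral fat but below 102.9 TPM in muscle. Some libraries also held RNA of another tissue. The liver gene Alb exceeded 10% of its liver level, or the depot's own marker was nearly absent, in 4 brown fat, 8 muscle, 5 subcutaneous and 10 visceral libraries, called libraries in doubt here, and 3 brown fat libraries were high in the B cell gene Cd79a. In bulk tissue fewer cells of a type and less RNA per cell cannot be told apart. Per the labels, reads of the other 3 strains were aligned with a milder mismatch penalty than those of C57BL/6J, so where C57BL/6J is compared the strain and the alignment setting cannot be told apart. Within a tissue each library is a separate mouse, so p-values set a difference against the spread between these mice. In tests between tissues most mice give both libraries, which the main model treats as independent.

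The levels of the genes in the 5 tissues were compared as the authors' TPM, which is per gene length and so allows genes to be set side by side. The lipases were fat genes above all. Pnpla2 stood at 1859 ± 207 TPM in brown fat (SD, n = 32, as for all tissue means), 1595 ± 521 in visceral, 1423 ± 397 in subcutaneous fat, 188 ± 42.1 in muscle and 38.1 ± 7.53 TPM in liver. Its brown fat libraries, 1521 to 2344 TPM, lay apart from those of muscle, 118.6 to 282.8 TPM, and of liver, 28.4 to 57.74 TPM. Lipe fell further outside fat, from 721 ± 196 TPM in visceral, 592 ± 151 in subcutaneous and 558 ± 68.4 in brown fat to 21.1 ± 9.45 TPM in muscle and 5.31 ± 1.73 TPM in liver. Mgll kept a higher level in liver than in muscle, at 108 ± 18.6 against 57.4 ± 15.7 TPM, with 986 ± 326 TPM in visceral, 716 ± 201 in subcutaneous and 602 ± 133 TPM in brown fat. In each of the 32 liver libraries Mgll exceeded Pnpla2, with a mean TPM ratio of 2.86 ± 0.394, while the mean ratio was between 0.314 and 0.628 in the other tissues.

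The regulators were less confined to fat. Abhd5 was 59.2 ± 15.9 TPM in visceral fat, 48.1 ± 9.39 in subcutaneous fat, 38.0 ± 9.55 in brown fat, 15.04 ± 1.98 in muscle and 11.7 ± 3.03 TPM in liver, so that its highest tissue mean was 5.04 times its lowest, the narrowest span of the 10 genes. G0s2 was 760 ± 230 TPM in visceral, 670 ± 274 in subcutaneous and 634 ± 239 TPM in brown fat, 263 ± 159 in liver and 77.9 ± 38.3 TPM in muscle. Liver was thus the tissue in which the mRNA of the inhibitor exceeded that of its lipase: the ratio of G0s2 to Pnpla2 in TPM was 7.21 ± 4.70 there, from 1.60 to 20.3, and above 1 in 32 of 32 libraries. In brown fat the TPM ratio was 0.343 ± 0.127 and above 1 in 0 of 32 libraries. It was 0.448 ± 0.276 in muscle, 0.531 ± 0.317 in subcutaneous and 0.522 ± 0.206 in visceral fat, and above 1 in 1, 3 and 1 of 32 libraries. In TPM, Abhd5 was below Pnpla2 in every library, at a mean ratio of 0.322 ± 0.112 in liver and 0.0203 ± 0.00393 in brown fat.

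Among the coat genes Plin1, Cidec and Plin4 had wide spans, the highest tissue mean being 1166, 528 and 370 times the lowest. Plin1 was 1007 ± 272 TPM in visceral, 862 ± 223 in subcutaneous and 668 ± 58.1 in brown fat, 18.2 ± 10.8 in muscle and 0.864 ± 1.52 TPM in liver, where it had no count in 1 library. Cidec ran from 4498 ± 1575 TPM in visceral and 2566 ± 953 TPM in subcutaneous fat through 1195 ± 255.1 TPM in brown fat to 53.8 ± 33.8 in muscle and 8.52 ± 6.68 TPM in liver. Plin4 was highest in white fat, with 1561 ± 522 TPM in visceral, 1220 ± 491 in subcutaneous, 264 ± 51.5 in brown fat, 92.2 ± 26.4 in muscle and 4.22 ± 2.16 TPM in liver. Plin2 was highest in brown fat, at 739 ± 186 TPM, and stayed high in liver, at 337 ± 89.7 TPM against 524 ± 154 in visceral, 421 ± 120 in subcutaneous fat and 66.9 ± 30.6 TPM in muscle. Plin5 was highest in brown fat by a wide margin: 292 ± 53.3 TPM there, from 163.3 to 419.5, against 61.0 ± 20.8 in liver, 59.99 ± 41.97 in subcutaneous fat, 44.3 ± 13.0 in muscle and 43.6 ± 23.7 TPM in visceral fat. No liver or muscle library reached the lowest brown fat value of Plin5, while 1 subcutaneous library, at 166.2 TPM, did.

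The 5 perilipins, Plin3 included, made up different mixtures in the tissues. In liver Plin2 was 78.8 ± 5.14% of their summed TPM and Plin5 14.5 ± 4.07%, while Plin1 was 0.200 ± 0.310%. In brown fat Plin2 (35.8 ± 5.53%) and Plin1 (33.0 ± 2.85%) were followed by Plin5 (14.3 ± 1.88%) and Plin4 (13.1 ± 3.16%). Plin4 led in subcutaneous fat (45.1 ± 9.06%), visceral fat (47.9 ± 6.75%) and muscle (38.2 ± 7.51%), with Plin1 next in both white depots. All 10 genes together summed to 11750 ± 2977 TPM in visceral, 8579 ± 2246 in subcutaneous and 6850 ± 796 TPM in brown fat, against 837 ± 218 in liver and 635 ± 130 TPM in muscle.

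**Figure D1:**
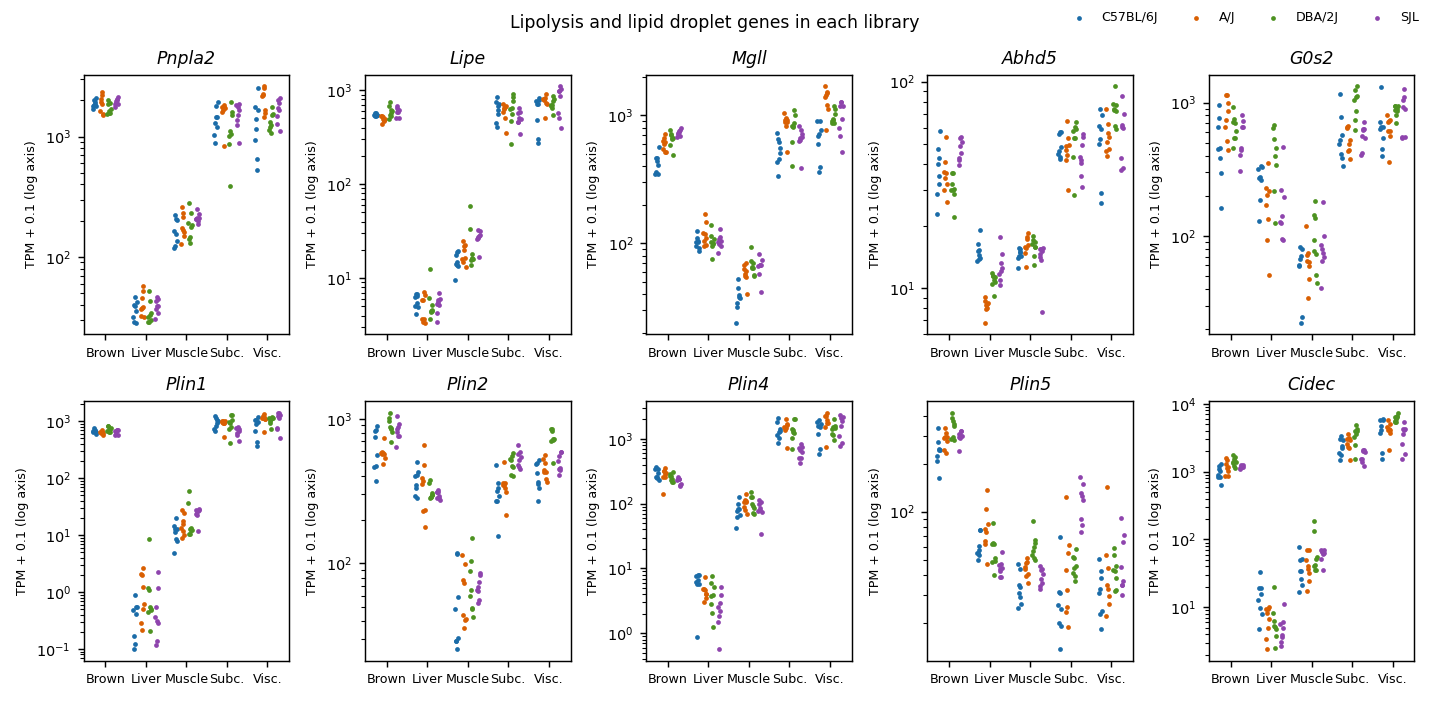
TPM of each of the 10 genes in each of the 160 libraries (points, coloured by strain) in brown fat, liver, muscle, subcutaneous and visceral fat, on log axes after adding 0.1. Plin1, Lipe, Cidec, Plin4 and Pnpla2 drop by over an order of magnitude from fat to liver. Plin2, G0s2, Mgll and Abhd5 drop less, and Plin5 is highest in brown fat.

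Muscle levels can be set beside those of fat. As a share of the subcutaneous mean, Cidec was 2.10%, Plin1 2.11%, Lipe 3.56%, Plin4 7.55%, Mgll 8.01% and G0s2 11.6% in muscle. Pnpla2 was 13.2%, Plin2 15.9%, Abhd5 31.3% and Plin5 73.9% of the subcutaneous mean. The 8 adipocyte markers ran from 1.57% (Lep) to 10.9% (Car3), with Adipoq at 2.08%. The part of fat cells within the muscle samples in the low values was not tested.

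Tissues were tested in pairs on the counts with edgeR's quasi-likelihood test, with strain and diet in the model, and p-values were adjusted over all genes (Benjamini-Hochberg, called under 0.05). Of 100 tests, 97 were called, beside these shares of all genes tested: 89.0% for brown fat against liver, 85.0% against muscle, 84.0% against subcutaneous and 83.0% against visceral fat; 89.0% for liver against muscle, 90.6% against subcutaneous and 89.0% against visceral fat; 88.1% and 84.2% for muscle against subcutaneous and visceral fat; and 71.5% between the white depots. The tests not called were Cidec between brown and subcutaneous fat, G0s2 between liver and subcutaneous fat, and Plin5 between the white depots. Abhd5 differed between liver and muscle by -0.14 on the log2 scale (adjusted p = 0.0331), and with the mouse as a block by -0.15 (adjusted p = 0.0649). Small differences between tissues moved with the scaling of libraries: on the TPM scale the median of all genes moved by up to -1.19 on the log2 scale (liver minus subcutaneous fat). Plin5 (log2 3.53 over subcutaneous, 3.55 over visceral), Plin2 (1.87 and 1.34) and Pnpla2 (1.46 and 1.12) were higher in brown than in white fat on both scales, and Plin4 was lower (-1.09 and -1.69). The directions of Abhd5, G0s2, Lipe, Mgll and Plin1 between brown and white fat turned from higher on the count scale to lower on the TPM scale. In the order of TPM means, limma called 32 of 40 neighbouring pairs and the library ranges of 29 pairs overlapped. The 8 pairs not called were G0s2 in visceral, subcutaneous and brown fat, Lipe in subcutaneous and brown fat, Plin1 and Pnpla2 in the white depots, and Plin5 in liver, subcutaneous fat, muscle and visceral fat, which as neighbours did not differ beyond their spread.

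The genes whose pattern was most like that of each member were sought among 12610 genes by Pearson r over the 20 tissue-by-strain means of log2(CPM + 1), where CPM is a gene's count over its library's TMM-scaled total; the 20 means share mice and libraries, and r is given as a description. Plin1 was closest to Fabp4, the fatty acid carrier of adipocytes (r = 0.997), with Trarg1 and Prkd1 next. Plin5 was closest to Etfdh (0.984), which passes electrons from fatty acid oxidation to the respiratory chain, and to Acadvl (0.983), the very long chain acyl-CoA dehydrogenase, followed by Dvl2. Plin4 lay with Apol6, Tgfbr3 and Cav1, the main caveolar protein, and Cidec with Cdkn2c, Tcaf2 and Mmp28. Mgll lay with Efnb1, Bscl2 (seipin, needed to form droplets) and Gnb1, and Plin2 with 4931406C07Rik, Hsd17b12 and Cgnl1. Pnpla2 lay with C1qtnf12, Slc24a3 and Mpp2. For Abhd5 the closest gene, Dolk, reached r = 0.913 (then Lamc3 and Eif4ebp1), and for G0s2 Carhsp1 reached 0.944 (then Arpc1a and Mrap). Lipe was closest to 4732471J01Rik (0.998), an antisense gene that covers 22.3% of its exonic bases and whose count was 20.4 to 31.0% of that of Lipe over the tissues. Whether counting used strand is not given in the sources used here, so reads of this pair cannot be told apart. Ptger3 and Acvr1c followed.

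The strains were compared within each tissue, with diet in the model, by a test over all 4 and by a contrast of each strain with the mean of the other 3; the contrasts of a tissue share libraries. Levels from here on are TMM-scaled CPM, and differences are log2 differences of this fit. Over the 4 strains 8 of the 10 genes were called in brown fat (56.8% of all genes tested), 5 in liver (53.0%), 3 in muscle (45.5%), 6 in subcutaneous fat (65.6%) and 3 in visceral fat (40.1%). These shares lie near or under those of all genes except in brown fat, where the count is 5 without the 4 libraries in doubt, 5 without C57BL/6J mouse 13 and 4 without DBA/2J mouse 48. In visceral fat 6 genes were called without the 10 libraries in doubt and 6 without SJL mouse 50 alone, the library that lacked the visceral marker Wt1. Of the 200 strain contrasts 48 were called, and 20 of them kept the call in every other fit. By strain, C57BL/6J being given before A/J, then DBA/2J and last SJL, the genes called numbered 2, 3, 5 and 3 in brown fat (26.2%, 35.8%, 34.8% and 23.9% of all genes), 3, 2, 1 and 2 in liver (26.7%, 28.5%, 26.1% and 30.1%), 2, 0, 2 and 3 in muscle (27.3%, 11.9%, 15.6% and 37.2%), 3, 2, 4 and 5 in subcutaneous fat (25.0%, 19.5%, 45.6% and 43.8%), and 1, 2, 3 and 0 in visceral fat (12.5%, 13.4%, 29.2% and 17.6%). For A/J in muscle none of the 10 genes passed an unadjusted p under 0.05 or was called by DESeq2, and for SJL in visceral fat 2 passed the unadjusted p and DESeq2 called 0.

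**Figure D2:**
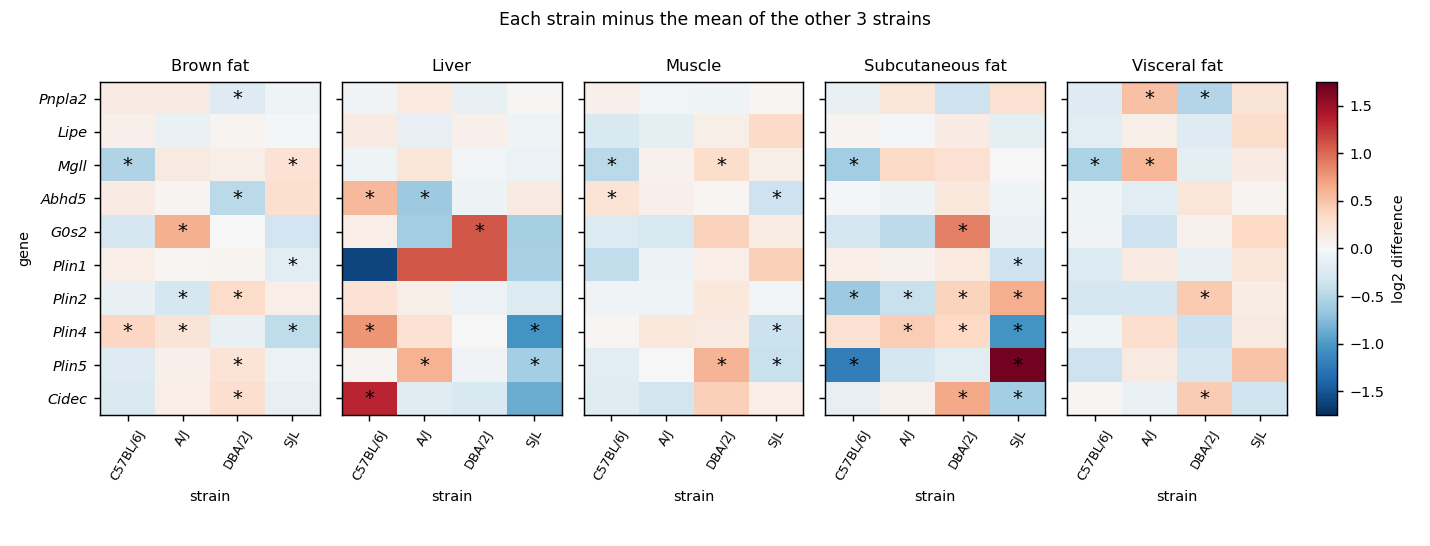
Log2 difference of each strain from the mean of the other 3 strains (colour, red higher, blue lower) for the 10 genes in 5 tissues, from edgeR's fit; a star marks an adjusted p under 0.05. The 48 stars include Mgll lower in C57BL/6J in 4 tissues and 5 genes in SJL subcutaneous fat, and none is in the row of Lipe.

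Among the lipases Mgll was lower in C57BL/6J in 4 of the 5 tissues. In brown fat its levels in C57BL/6J ran from 790.9 through a median of 1027 to 1314 CPM, while A/J ran from 1138 through 1405 to 2042, DBA/2J from 1137 through 1429 to 1661 and SJL from 1365 through 1497 to 1722 CPM. Thus 7 of 8 C57BL/6J libraries lay below all 24 others, and the difference was -0.52 (SE 0.0893, adjusted p = 4.47e-05). In muscle C57BL/6J, at 92.3 ± 16.0 CPM (SD, n = 8, as for all strain means), was below 123 ± 18.8 in A/J, 138 ± 19.7 in DBA/2J and 125 ± 14.6 CPM in SJL (log2 -0.47, SE 0.0900, adjusted p = 0.000192). In subcutaneous fat C57BL/6J was at 942 ± 241 CPM and the other strains between 1286 and 1539 CPM (log2 -0.61, SE 0.130, adjusted p = 0.000846). Immune markers also differed by strain in this depot: 5 of 6 macrophage markers were called higher in C57BL/6J (summed mean 4586 TPM against 2690 to 3793), and the 5 B cell markers, none called in C57BL/6J, summed to a mean of 944 TPM there against 375 to 719. Their part in the subcutaneous strain differences was not tested. In brown fat, muscle and subcutaneous fat the call held in every fit, leaving out each library included. In visceral fat the levels were 1283 ± 240 CPM in C57BL/6J, 1559 ± 171 in DBA/2J, 1842 ± 402 in SJL and 2300 ± 460 CPM in A/J. C57BL/6J was lower there too (log2 -0.55, adjusted p = 0.00221; -0.43 and 0.0852 without the libraries in doubt), and A/J was higher (log2 0.58, SE 0.114, adjusted p = 0.000762). In liver the strains lay together, from 228 ± 40.5 CPM in SJL to 268 ± 52.0 in A/J, with C57BL/6J at 232 ± 54.6 CPM and a test over strains that was not called (adjusted p = 0.185). Mgll was also higher in DBA/2J muscle (log2 0.30, adjusted p = 0.0135; 0.0656 without DBA/2J mouse 34) and in SJL brown fat (log2 0.26, adjusted p = 0.0264; 0.0818 without SJL mouse 59).

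**Figure D3:**
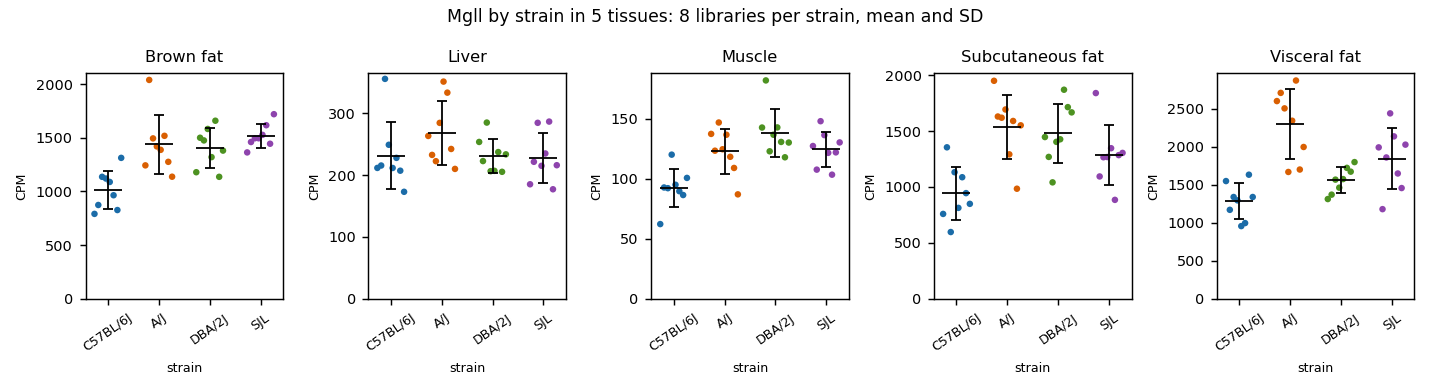
TMM-scaled CPM of Mgll in each library by strain in 5 tissues (points), with the mean and SD of 8 libraries (black). C57BL/6J is the lowest strain in brown fat, muscle, subcutaneous and visceral fat, with 7 of 8 brown fat libraries below all others, and not in liver, where the means run from 228 to 268 CPM.

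Pnpla2 was called over strains in brown and visceral fat. In visceral fat it was 2144 ± 495 CPM in A/J, 1871 ± 263 in SJL, 1496 ± 585 in C57BL/6J and 1273 ± 187 CPM in DBA/2J. A/J was higher (log2 0.52, SE 0.141, adjusted p = 0.0136; 0.0622 without A/J mouse 32, and 0.0557 without the libraries in doubt) and DBA/2J lower (log2 -0.52, SE 0.148, adjusted p = 0.00966). DBA/2J visceral fat was also the group in which 4 of 8 adipocyte markers were lower, with a summed level from 22020 to 33800 TPM against 16370 to 73120 in the other strains, and with Adipoq as a covariate the DBA/2J difference was -0.03 (adjusted p = 0.839). Adipoq is itself an adipocyte gene, so this fit cannot tell fewer fat cells from less RNA per cell. The cause was not tested. In brown fat DBA/2J was lower by a small margin, 2213 ± 317 against 2391 to 2707 CPM (log2 -0.23, adjusted p = 0.0365), a difference of 0.02 with the Adipoq covariate and a call lost without mouse 33, 39, 43 or 45 of that strain. In liver the 4 strain means lay between 47.1 and 55.2 CPM, in muscle between 227 and 250 CPM, and neither test over strains was called (adjusted p = 0.225 and 0.926). Lipe was called by edgeR in 0 of 5 tissues and in 0 of 20 contrasts (in visceral fat it passed an unadjusted p under 0.05), and DESeq2 called it in none. On the TPM scale limma called it over strains in brown fat (adjusted p = 0.00773) and muscle (0.0166), and with Adipoq as a covariate it was called in liver, muscle, subcutaneous and visceral fat. Its highest strain mean was 1.11 times its lowest in brown fat and 1.37 times in muscle, the widest, with SJL at 59.8 ± 5.71 and C57BL/6J at 43.7 ± 11.6 CPM (adjusted p over strains = 0.294).

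Abhd5, the co-activator, separated the strains in liver. A/J livers held 18.63 to 23.83 CPM with a median of 21.8, and every other liver held more, from 25.61 to 53.53 CPM. The A/J difference was -0.64 (SE 0.0815, adjusted p = 2.39e-07). C57BL/6J was the highest, with 30.70, 37.9 and 53.53 CPM as lowest, median and highest, above the medians of DBA/2J (28.7 CPM) and SJL (32.0 CPM), a difference of 0.57 (SE 0.0759, adjusted p = 5.37e-07). Both calls held in every fit. The mean of C57BL/6J was 1.88 times that of A/J. In muscle SJL was lower, at 30.9 ± 3.74 CPM against 38.0 to 42.2 CPM (log2 -0.37, SE 0.0687, adjusted p = 0.000104; -0.16 and 0.129 on the TPM scale), and C57BL/6J was higher on the count scale (log2 0.24, adjusted p = 0.00788) but not on the TPM scale (-0.06, adjusted p = 0.607). In SJL muscle all 6 macrophage markers were called higher, with a summed level of 852.8 to 1439 TPM against 264.6 to 645.3 TPM in the other strains, and their part in the SJL muscle differences of Abhd5, Plin5 and Plin4 was not tested. In brown fat DBA/2J was lower, at 77.0 ± 10.9 CPM against 101 to 114 CPM (log2 -0.48, SE 0.122, adjusted p = 0.00268). There 4 of 8 adipocyte markers were lower and 2 higher in DBA/2J, and with Adipoq as a covariate the difference was -0.16 (adjusted p = 0.349). That fit cannot tell fewer fat cells from less RNA per cell either. In the white depots Abhd5 was not called (adjusted p = 0.358 and 0.247). The gene A730085K08Rik shares 15.5% of the exonic bases of Abhd5, with a count of 10.8 to 15.8% of that of Abhd5 over the tissues.

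G0s2, the inhibitor of Pnpla2, was high in DBA/2J in liver and subcutaneous fat. In liver DBA/2J ran from 51.27 through 174 to 246.9 CPM, C57BL/6J from 63.34 through 102 to 127.1, A/J from 18.96 through 74.0 to 125.8 and SJL from 29.88 through 49.6 to 176.2 CPM. The DBA/2J difference was 1.08 (SE 0.281, adjusted p = 0.00474), with 4 of 8 libraries above all 24 others. In subcutaneous fat DBA/2J stood at 320 ± 62.3 CPM against 162 ± 37.6 in A/J, 177 ± 89.8 in C57BL/6J and 190 ± 38.0 CPM in SJL (log2 0.89, SE 0.157, adjusted p = 5.98e-05), and 1 of the 24 other libraries lay within its range. Both calls held in every fit. In DBA/2J subcutaneous fat 4 of 8 adipocyte markers were called higher and 2 lower, with a summed level of 14600 to 37900 TPM. The G0s2 call there also held with Adipoq as a covariate, and the part of the other markers was not tested. The TPM ratio of G0s2 to Pnpla2 was 12.4 ± 5.69 in DBA/2J liver against 4.30 ± 1.82 in A/J, 4.62 ± 2.66 in SJL and 7.51 ± 2.60 in C57BL/6J, and 0.946 ± 0.315 in DBA/2J subcutaneous fat against 0.336 to 0.445 in the other strains; these ratios were not tested. In brown fat G0s2 was higher in A/J (329 ± 101 CPM, log2 0.62, adjusted p = 0.0228), where the test over strains was not called (adjusted p = 0.0646) and the contrast was lost without any of 4 single A/J libraries (mice 18, 22, 27 and 30).

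**Figure D4:**
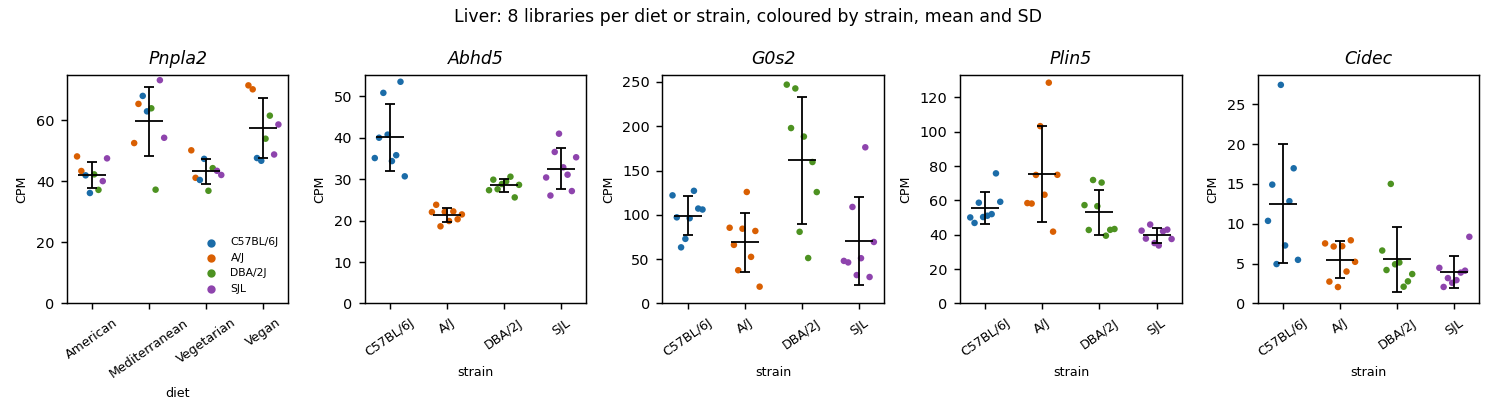
TMM-scaled CPM in liver of Pnpla2 by diet and of Abhd5, G0s2, Plin5 and Cidec by strain (points are libraries, coloured by strain, with the mean and SD of 8). For Abhd5 the 8 A/J livers, at 18.63 to 23.83 CPM, lie below all others, and for Pnpla2 7 of 8 Mediterranean livers lie above the highest American one, at 48.12 CPM.

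All 5 coat genes were called in subcutaneous fat of SJL, 2 higher and 3 lower. Plin5 ran there from 58.92 through 90.5 to 154.2 CPM, against 9.893 through 17.7 to 49.98 in C57BL/6J, 14.65 through 27.4 to 92.17 in A/J and 25.72 through 33.4 to 46.92 CPM in DBA/2J. A single library of another strain, A/J mouse 22, reached the SJL range. The difference was 1.70 (SE 0.252, adjusted p = 4.88e-06), 4.50 times from the lowest to the highest strain mean, and C57BL/6J was lower (log2 -1.20, SE 0.294, adjusted p = 0.00309). Plin2 was higher in SJL as well, with 728 ± 139 CPM (log2 0.64, SE 0.123, adjusted p = 0.000116), and in DBA/2J with 642 ± 108 (log2 0.39, adjusted p = 0.0129; 0.106 without the libraries in doubt). It was lower in C57BL/6J with 378 ± 123 (log2 -0.64, SE 0.132, adjusted p = 0.000588) and in A/J with 428 ± 101 CPM (log2 -0.39, adjusted p = 0.0329; 0.113 without the libraries in doubt, and lost without mouse 17, 18, 24, 25 or 27). Plin4 went the other way: SJL held 1048 to 1828 CPM and the other strains 1744 to 4578 CPM, with 6 of 8 SJL libraries below all others (log2 -1.05, SE 0.158, adjusted p = 4.75e-06). Cidec was likewise lower in SJL, at 1220 ± 203 CPM (log2 -0.59, SE 0.151, adjusted p = 0.00216), and higher in DBA/2J, at 2342 ± 539 CPM (log2 0.66, SE 0.141, adjusted p = 0.000484), against 1538 ± 432 in C57BL/6J and 1720 ± 435 CPM in A/J. These calls, except those given with a second p, held in every fit. For Plin1 the SJL difference was -0.36 (adjusted p = 0.0202) without a call over strains (adjusted p = 0.0772), and -0.09 with Adipoq as a covariate (adjusted p = 0.421). Plin4 was called higher in A/J (log2 0.43, adjusted p = 0.0341; 0.234 without the libraries in doubt) and DBA/2J (log2 0.35, adjusted p = 0.0497; 0.163 on the TPM scale), and each was lost without single libraries (A/J mice 17, 22, 24, 27 and 32 for the former, 15 of 32 libraries for the latter).

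Markers of brown adipocytes differed by strain in this depot too. All 6 of them (Ucp1, Cidea, Elovl3, Dio2, Ppargc1a and Cox7a1) were called higher in SJL subcutaneous fat, with a median difference of 2.79, and their summed level was 2520 to 6790 TPM in SJL, 94.3 to 2314 in C57BL/6J, 84.6 to 4171 in A/J and 158 to 594 TPM in DBA/2J; none was at 0 in any library. Cidea is also in the list of other droplet proteins used further on. In A/J and in C57BL/6J the library with the highest Plin5, mouse 22 with 92.17 CPM and mouse 16 with 49.98 CPM, was also the library with the highest sum, 4171 and 2314 TPM. In SJL and DBA/2J it was not. In SJL mouse 49 was highest in Plin5 (154.2 CPM, sum 6215 TPM) and mouse 53 in the sum (6790 TPM). In DBA/2J mouse 38 was highest in Plin5 (46.92 CPM, sum 364.8 TPM) and mouse 42 in the sum (594.3 TPM). Of 8 adipocyte markers (Adipoq, Lep, Retn, Cfd, Fabp4, Pparg, Car3 and Adig), 4 were called lower in SJL, with a summed level of 17320 to 27980 TPM against 14600 to 50260 in the other strains. The SJL calls of Plin5, Plin2, Plin4 and Cidec also held with Adipoq as a covariate. The part of brown adipocytes and of the other adipocyte markers in these differences was not tested. In the mixture of perilipins, Plin4 was 31.6 ± 4.91% in SJL against 46.7 to 51.9% in the other strains, Plin5 5.89 ± 1.42% against 1.08 to 1.69%, and Plin1 stayed between 31.4 and 35.1%.

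**Figure D5:**
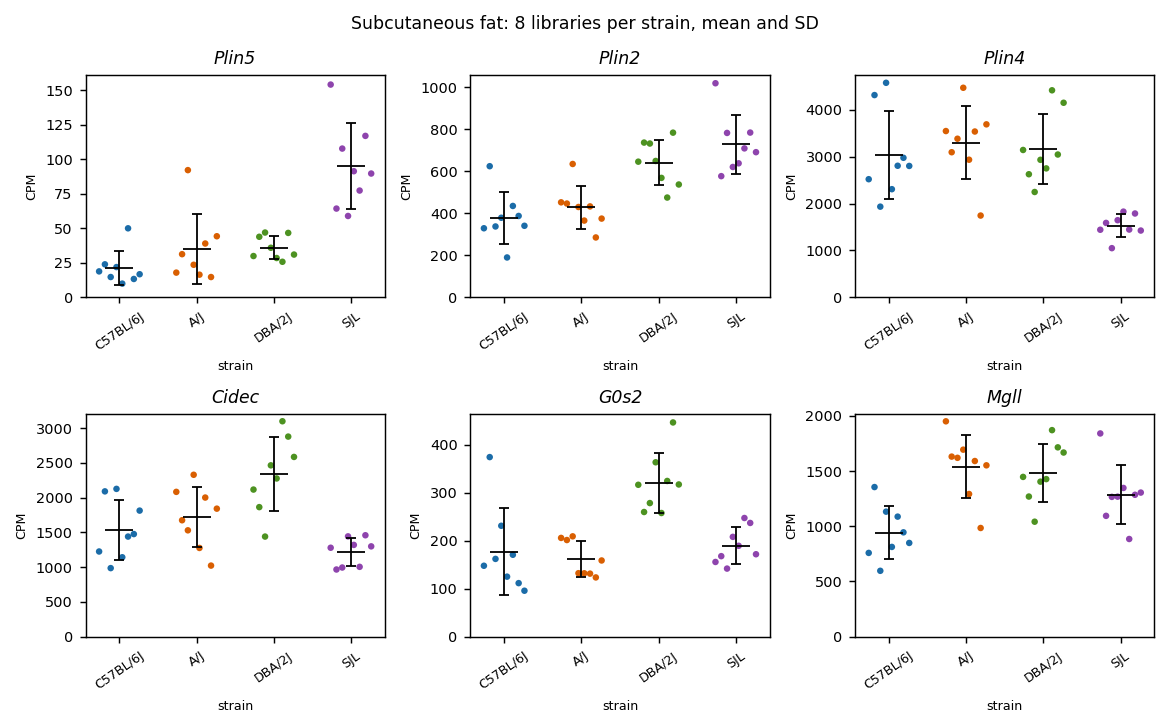
TMM-scaled CPM of 6 genes in subcutaneous fat by strain (points are libraries, black lines the mean and SD of 8). SJL is high in Plin5 (58.92 to 154.2 CPM) and Plin2 and low in Plin4 (1048 to 1828 CPM) and Cidec, DBA/2J is high in G0s2, and C57BL/6J is low in Mgll.

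Promoter sequences are shown for Plin5 and Plin2, whose levels were both highest in brown fat and both higher in SJL subcutaneous fat, and for Abhd5, whose liver level set A/J apart from every other liver. They are the reference sequence of RefSeq for build GRCm38.p6, 250 bases before to 50 after a start, 5′ to 3′ on the gene's strand, with the start base as 0. They say nothing of the alleles of A/J, DBA/2J or SJL. The letters searched, on both strands, were AGGTCA, the hexamer that nuclear receptors bind, and a pair of AGGTCA with 1 base between them, the form PPAR binds, with at least 10 of its 12 letters matched. Capitals mark an exact hexamer (AGGTCA, or TGACCT on the opposite strand) and, in Plin2, the whole pair.
Plin2, chr4:86670010-86670309, minus strand: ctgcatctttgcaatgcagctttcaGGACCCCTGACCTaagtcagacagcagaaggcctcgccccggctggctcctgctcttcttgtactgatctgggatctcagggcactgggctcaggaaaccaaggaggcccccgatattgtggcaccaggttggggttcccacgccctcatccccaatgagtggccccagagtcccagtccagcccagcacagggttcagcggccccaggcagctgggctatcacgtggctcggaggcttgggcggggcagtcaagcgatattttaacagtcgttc
Plin5, chr17:56117499-56117798, minus strand: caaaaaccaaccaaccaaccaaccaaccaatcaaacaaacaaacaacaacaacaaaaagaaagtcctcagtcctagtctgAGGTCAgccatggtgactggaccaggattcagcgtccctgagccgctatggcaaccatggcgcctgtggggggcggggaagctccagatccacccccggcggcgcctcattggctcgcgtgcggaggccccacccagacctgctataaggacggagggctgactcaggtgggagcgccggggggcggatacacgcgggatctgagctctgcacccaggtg
Abhd5, chr9:122351366-122351665, plus strand: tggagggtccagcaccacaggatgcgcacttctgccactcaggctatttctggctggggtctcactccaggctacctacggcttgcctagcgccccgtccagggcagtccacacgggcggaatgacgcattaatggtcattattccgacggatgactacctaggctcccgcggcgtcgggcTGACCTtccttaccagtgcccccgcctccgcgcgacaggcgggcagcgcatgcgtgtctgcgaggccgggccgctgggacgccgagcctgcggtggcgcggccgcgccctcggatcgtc

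In Plin2 the capitals span positions -225 to -213, 10 of 12 letters on the opposite strand, with the exact hexamer at -218; in Plin5 the hexamer starts at -170 and in Abhd5 at -69. Over all 32544 promoter windows of the table, 3.87% held such a pair and 16.25% the hexamer. Among the windows of the 10 genes, which for some include a second start, the pair was present in Plin2 alone, and the hexamer in Plin2, Abhd5 and both windows of Plin5. The genes shown are thus exactly the members with a match, and the windows of all other members held neither. A match is a run of letters and not a measured binding site.

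The coat genes also differed between strains in other tissues. In liver Plin5 was higher in A/J, from 41.84 through 69.1 to 128.6 CPM (log2 0.61, SE 0.125, adjusted p = 0.000358), and lower in SJL, from 33.78 through 39.9 to 45.97 CPM (log2 -0.60, SE 0.133, adjusted p = 0.000878). SJL thus had the highest Plin5 mean of the 4 strains in subcutaneous fat and the lowest in liver. Cidec was low in every liver but highest in C57BL/6J, at 12.5 ± 7.44 CPM against 3.95 to 5.56 CPM (log2 1.33, SE 0.292, adjusted p = 0.000889). Plin4 was lower in SJL liver, at 6.50 ± 3.56 CPM against 10.9 to 16.3 (log2 -1.04, SE 0.308, adjusted p = 0.0110), and higher in C57BL/6J (log2 0.78, adjusted p = 0.0363; 0.0865 on the TPM scale, and lost without any of 7 libraries, mice 1, 2, 8, 9, 13, 16 and 34). The opposite-strand gene Hdgfl2 shares 39.1% of the exonic bases of Plin4, and its count in liver was 257% of that of Plin4, between 27.1 and 32.2 CPM without TMM scaling over the strains, so that the liver value of Plin4 is uncertain. Plin2 was not called between strains in liver (454 ± 74.2 to 578 ± 100 CPM, adjusted p = 0.158).

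In muscle Plin5 was higher in DBA/2J, with 43.30 to 70.30 CPM against 25.48 to 50.09 in the other strains (log2 0.60, SE 0.0956, adjusted p = 3.02e-05), and lower in SJL (30.7 ± 4.23 CPM, log2 -0.39, adjusted p = 0.00295; -0.19 and 0.118 on the TPM scale). For Plin4 the SJL difference in muscle was -0.38 (adjusted p = 0.0405), without a call over strains (adjusted p = 0.142) and lost in 12 of 32 fits that left out 1 library. In brown fat Plin4 was higher in C57BL/6J, at 882 ± 144 CPM (log2 0.36, SE 0.0792, adjusted p = 0.000978), and A/J (821 ± 125, log2 0.22, adjusted p = 0.0303, lost without mouse 22, 24, 27 or 32) and lower in SJL, at 581 ± 55.3 CPM (log2 -0.45, SE 0.0829, adjusted p = 0.000133). On the TPM scale these 3 were 0.23, 0.10 and -0.28 (adjusted p = 0.119, 0.540 and 0.0505). Plin4 was thus called lower in SJL in brown fat, liver, muscle and subcutaneous fat, and in visceral fat SJL stood at 3723 ± 999 CPM, beside 3956 ± 956 in A/J, with no call over strains (adjusted p = 0.138). DBA/2J brown fat was higher in Plin2 (log2 0.32, adjusted p = 0.0268), Plin5 (0.24, 0.0292) and Cidec (0.29, 0.0453), A/J lower in Plin2 (-0.30, 0.0441) and SJL lower in Plin1 (-0.20, 0.0214). Each of these 5 lost the call without the libraries in doubt. Each was also lost without single libraries: DBA/2J mouse 38 or 48 for Plin2, mouse 34, 39, 43 or 48 for Plin5, SJL mouse 49 or 57 for Plin1, 22 of 32 libraries for Cidec and 19 of 32 for Plin2 in A/J. In visceral fat DBA/2J was higher in Plin2, at 819 ± 148 CPM against 554 to 691 (log2 0.45, adjusted p = 0.0122; 0.169 with Adipoq as a covariate), and in Cidec, at 3606 ± 477 CPM against 2370 to 2899 (log2 0.45, adjusted p = 0.0420; 0.118 without the libraries in doubt, and lost in 15 of 32 fits that left out 1 library), where Cidec was not called over the 4 strains (adjusted p = 0.0956). The test of Plin2 over strains, 0.0194, was 0.0501 without DBA/2J mouse 45. Plin5 in visceral fat was not called (adjusted p = 0.389), with 127.2 CPM in A/J mouse 24 above a strain median of 22.6 CPM. In SJL, with a median of 36.8 CPM, mouse 57 was highest at 74.89 CPM, followed by mouse 50 at 64.61 and mouse 59 at 50.28 CPM. The brown marker sum was 7584 TPM in A/J mouse 24 and 520.2, 3690 and 1957 TPM in SJL mice 57, 50 and 59, so that the highest Plin5 in SJL did not lie in the library with the highest sum.

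The other genes of the pathway were read from 6 lists. Over the strains, in the order brown fat, liver, muscle, subcutaneous and visceral fat, 12, 8, 10, 9 and 9 of 17 genes of lipolysis signalling were called, 8, 9, 4, 5 and 6 of 12 other lipid hydrolases, 6, 6, 6, 9 and 3 of 14 other droplet proteins, 10, 10, 7, 9 and 5 of 12 genes of triglyceride synthesis, 6, 6, 5, 7 and 2 of 11 genes of fatty acid and glycerol handling, and 9, 11, 2, 10 and 4 of 14 PPAR targets; the shares of all genes are those given above. Adrb3, the beta-adrenergic receptor that starts lipolysis in rodent fat, was 367 ± 83.3 CPM in SJL subcutaneous fat against 69.9 ± 14.9 in DBA/2J (adjusted p = 2.23e-08 over strains). In visceral fat it was 764 ± 248 CPM in SJL and 170 ± 46.4 in DBA/2J (adjusted p = 4.22e-07). Npr3, the clearance receptor for natriuretic peptides, had the opposite order in subcutaneous fat, with 1255 ± 299 CPM in DBA/2J and 262 ± 38.1 in SJL (adjusted p = 1.20e-07). So did Hilpda, a droplet protein that inhibits Pnpla2, at 45.1 ± 15.3 and 9.24 ± 1.95 CPM (adjusted p = 2.82e-09), and Cav1, at 2326 ± 455 and 1068 ± 153 CPM (adjusted p = 1.01e-05).

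In SJL subcutaneous fat 5 of 14 PPAR targets were called higher and 2 lower (21.9% of all genes in each direction), with a median difference of 0.35 against 0.02 for all genes tested. Pdk4, which spares glucose when fat is burnt, was 631 ± 337 CPM there and 75.4 ± 34.5 in DBA/2J, and Acadm, the medium chain acyl-CoA dehydrogenase, 748 ± 134 CPM against 319 ± 80.3 in C57BL/6J. Gk, glycerol kinase, was 102 ± 36.4 CPM in SJL and 11.2 ± 4.197 in C57BL/6J (adjusted p = 9.83e-08), while Pnpla3, the close relative of Pnpla2, was lowest in SJL, at 80.9 ± 10.6 CPM against 303 ± 99.96 in C57BL/6J. In SJL liver 7 of the 14 PPAR targets were called lower, 1 higher and 6 not (13.6% of all genes lower, 16.5% higher), with a median of -0.56 against 0.01 for all genes. In A/J liver 8 of 14 were called higher, 1 lower and 5 not (14.7% of all genes higher, 13.9% lower), with a median of 0.64 against 0.00. Plin5, no member of that list, was likewise higher in A/J and lower in SJL liver. Cd36, a fatty acid transporter, was 80.6 ± 16.3 CPM in C57BL/6J and 14.9 ± 2.78 in SJL liver, and Fitm1, which helps droplets bud, 42.2 ± 13.5 CPM in C57BL/6J and 2.50 ± 0.848 in SJL. Hsd17b13, a hepatic droplet enzyme, was 461 ± 74.0 CPM in DBA/2J and 129 ± 25.3 in SJL liver.

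Diet was compared with strain in the model; the Mediterranean, vegetarian and vegan contrasts share the American libraries. Over the 4 diets 1 of the 10 genes was called, Pnpla2 in liver, where 0.102% of all genes were called (0.145% for the Mediterranean and 0.113% for the vegan contrast). American livers held 36.15, 42.1 and 48.12 CPM of Pnpla2 as lowest, median and highest, Mediterranean livers 37.24, 63.4 and 73.07, vegan livers 46.70, 56.3 and 71.37, and vegetarian livers 36.88, 42.7 and 50.12 CPM. Above the highest American value lay 7 of 8 Mediterranean, 6 of 8 vegan and 1 of 8 vegetarian livers. The test over diets gave an adjusted p of 0.0222, the Mediterranean contrast 0.51 (SE 0.102, adjusted p = 0.0364), the vegan contrast 0.44 (adjusted p = 0.0691) and the vegetarian contrast 0.04 (adjusted p = 1.00). In all 4 strains the mean of the 2 mice was higher on the Mediterranean diet than on the American one: 65.4 against 39.0 CPM in C57BL/6J, 58.9 against 45.7 in A/J, 50.6 against 39.7 in DBA/2J and 63.6 against 43.8 CPM in SJL. The vegan means were higher too, by most in A/J (70.7 CPM) and least in C57BL/6J (47.2 CPM). DESeq2 called the test over diets and both contrasts, and limma on TPM called none of them (Mediterranean 0.37, adjusted p = 0.209). The Mediterranean call was also lost with no count filter (adjusted p = 0.0639) and with Adipoq as a covariate (0.0548), while the test over diets stayed under 0.05 in both (0.0228 and 0.0226). The Mediterranean call was lost in 15 of 32 fits that left out 1 library (mice 1, 2, 7, 8, 17, 18, 32, 33, 34, 38, 43, 49, 50, 53 and 54), with an adjusted p of up to 0.134, and the test over diets was lost without DBA/2J mouse 34 or SJL mouse 49.

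No other member was called for diet. By edgeR 0 of 10 were called over the diets in brown fat (0.416% of all genes called), in muscle (0.0%) and in subcutaneous (0.0%) and visceral fat (0.0%); 0 of 10 passed an unadjusted p under 0.05, and DESeq2 and limma called 0. In liver Mgll and Plin2 passed the unadjusted p only. Of the 80 genes of the 6 pathway lists edgeR called 0 over the diets in each tissue, while 20 in brown fat, 21 in liver, 2 in muscle, 6 in subcutaneous and 2 in visceral fat passed an unadjusted p under 0.05, as did 12.8%, 14.1%, 2.93%, 3.10% and 4.40% of all genes. For the interaction of strain and diet, with 2 mice a cell, edgeR called 0 of 10 in each of brown fat, liver, muscle and the subcutaneous and visceral depots, where 0.0099%, 0.0%, 0.0%, 0.0% and 0.392% of all genes were called. At an unadjusted p under 0.05 the counts were 1 (G0s2), 2 (Plin2 and Plin4), 2 (Lipe and Plin1), 0 and 6 (Abhd5, Cidec, Lipe, Plin1, Plin5 and Pnpla2), DESeq2 called 1, 1, 1, 0 and 5, and limma called 0 in each. Of all genes 7.90%, 8.09%, 6.82%, 5.29% and 14.7% passed the unadjusted p. In visceral fat both C57BL/6J libraries on the vegan diet (mice 13 and 16, Alb at 62.2% and 55.7% of its liver level) and both SJL libraries on the American diet (mouse 49 with Alb at 38.9%, mouse 50 with Wt1 nearly absent) were in doubt. Leaving out both libraries of a strain and diet removes that cell from the interaction. A fit without the libraries in doubt therefore cannot decide their part in these counts.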

How the data were processed

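RNA of 5 tissues was sequenced as stranded mRNA libraries (TruSeq Stranded mRNA, NovaSeq6000, per the labels). FastQC, Trim Galore, HISAT2, HTSeq and GRCm39 are named in the submitters' processing notes; for the tool versions, annotation release and strand setting, "not given in the sources used here" applies. Values came as estimated counts deposited by the authors, of which 74.37% of non-zero values were whole (within 1e-06), and as deposited TPM, which matched the counts divided by 1 fixed length per gene (greatest coefficient of variation 0.103% over 4584 genes). Counts were rounded. Within a tissue, genes passing filterByExpr were scaled by TMM and tested with edgeR 4.0.16 (robust quasi-likelihood F-test, R 4.3.3) for strain and diet, or their interaction. Benjamini-Hochberg adjusted p-values under 0.05 over all genes were called. limma 3.58.1 on log2(TPM + 1), DESeq2 1.42.0 and other settings were alternatives, and the edgeR legacy test was added after seeing the data. The script was tested on simulated data. Mouse numbers, given by the labels, pair tissues of an animal: same-mouse deviations from the cell means had a median r of -0.0554 to 0.0874 over the 10 tissue pairs. In single strain-by-diet cells r ran from -0.565 (brown and subcutaneous fat) to 0.781 (brown and visceral fat). The members, lists and promoter motifs were chosen with earlier results of these data known. Genes were named as members, as the 3 most alike, or as the 2 list genes with the smallest p over strains in a tissue. 1 list gene that this rule would name is not reported here. Promoter sequences came from RefSeq's table for GRCm38.p6, matched by symbol for 10 of 10 genes; no coordinates were moved between builds.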

Additional observations from a re-analysis of the deposited data

Results flagged for a closer look

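In 200 groups of 8 libraries (10 genes, 5 tissues, 4 strains), 28 had a highest or lowest library set apart from the other 7 by a gap above Dixon's critical share of the range, 0.526. That limit is passed by chance in about 1 in 20 groups of independent values from a single normal distribution. The groups here are unlogged, mix 4 diets and share libraries between genes, so the 28 cannot be set against that rate. All values are TMM-scaled CPM, each followed by the nearest other library.

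Several genes stood apart in the same library. In liver of DBA/2J mouse 38 Plin1 was 15.87 (2.227), Lipe 29.78 (15.55) and Cidec 15.01 (6.646); the brown fat gene Ucp1 was 103.3 TPM there against a median of 0.17 in the other 7 livers. In muscle of DBA/2J mouse 34 Lipe was 134.2 (76.18), Mgll 181.9 (142.7) and Plin5 70.3 (55.56), with Ucp1 at 812.8 against 17.46 TPM and Adipoq at 126.2 against 35.79 TPM. In brown fat of A/J mouse 18 Lipe was 1641 (1393), Mgll 2042 (1520) and Plin1 1809 (1468). In subcutaneous fat of A/J mouse 25 Plin1 was lowest at 904.7 (1347) and Pnpla2 at 941.1 (1653), with Adipoq at 1735 against 3430 TPM and the muscle gene Ckm at 2633 against 177.2 TPM. In muscle of SJL mouse 64 Abhd5 was lowest at 22.14 (30.61), Plin1 lowest at 27.03 (41.01) and G0s2 highest at 76.74 (30.19). In liver of SJL mouse 59 Plin1 was 4.05 (1.858) and Cidec 8.37 (4.474), with Adipoq at 7.116 against 0.9418 TPM.

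Plin5 was highest beside Ucp1 in 3 white fat libraries. It was 92.17 (44.23) in subcutaneous fat of A/J mouse 22, with Ucp1 at 2890 against 36.67 TPM, and 49.98 (23.87) in C57BL/6J mouse 16, with Ucp1 at 1548 against 1.648 TPM. In visceral fat of A/J mouse 24 it was 127.2 (41.21), with Ucp1 at 4718 against 14.89 TPM. Plin5 was lowest in brown fat of SJL mouse 49, at 199.1 (242.1), where the liver gene Alb was 18670 against 109.9 TPM, and of A/J mouse 32, at 203.8 (267.6). It was highest in liver of C57BL/6J mouse 9, at 75.78 (59.23). The part of these markers in the values was not tested.

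The other libraries set apart were C57BL/6J mouse 7 for Abhd5 in muscle, at 53.26 (45.08), G0s2 in visceral fat, at 436.5 (211.7), and Mgll in liver, at 356 (249.2). Lipe was 73.7 (51.96) in muscle of A/J mouse 22, and Plin2 was 616.3 (472.7) in liver of SJL mouse 53 and 1020 (784.9) in subcutaneous fat of SJL mouse 49.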

How the results depend on the processing

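Of the 48 strain contrasts called, 20 kept the call in every fit, 27 lost it in at least 1 alternative over all libraries or a subset, and 17 without at least 1 single library. DESeq2 kept 48 of 48. The number of genes called between strains in brown fat, 8, was 5 with no count filter, 5 without the libraries in doubt, and 4 to 9 with single libraries left out. In liver it stayed at 5 to 6. In muscle the 3 became 6 with Adipoq as a covariate and 5 without the libraries in doubt, and 3 to 4 with 1 library left out. In subcutaneous fat the 6 became 10 with Adipoq, and 6 to 8. In visceral fat the 3 became 8 with Adipoq, 6 without the libraries in doubt, and 2 to 6. The 1 gene called between diets in liver was 0 with limma at either pseudocount, and 0 to 1 with 1 library left out; the other tissues stayed at 0 to 0. For the interaction DESeq2 called 1 in brown fat, 1 in liver, 1 in muscle and 5 in visceral fat, and leaving out 1 library gave 0 to 1 in visceral fat (1 without A/J mouse 22 or SJL mouse 49) and 0 to 0 elsewhere. The order of tissue levels was the same for 3 of 10 genes by CPM with TMM over all libraries.

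Directions reversed as follows; the cause was not tested. Pnpla2 in DBA/2J brown fat was 0.020 with Adipoq as a covariate, and Abhd5 in C57BL/6J muscle -0.056 with limma at a pseudocount of 1 and -0.058 at 0.1. With limma on TPM, brown minus subcutaneous fat was -0.35 for Abhd5, -0.086 for G0s2, -0.044 for Lipe, -0.23 for Mgll and -0.32 for Plin1. Brown minus visceral fat was -0.61, -0.31, -0.31, -0.66 and -0.53 for the same genes. Plin2 was -0.30 for liver minus subcutaneous and -0.62 for liver minus visceral fat, and Plin5 -0.17 for muscle minus subcutaneous fat.

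With the mouse as a replicate block, Abhd5 between liver and muscle was -0.15 (edgeR adjusted p = 0.0649), and the block changed no other call among the 97 tissue pairs. Plin1 in liver had no count in 1 library.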
